A study of Mus musculus with 9 samples.

Results

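The genes described here act in G2 and mitosis: they drive entry into division, build the spindle, attach chromosomes to it, and divide the cell. They were chosen by gene symbol from a list of 36, of which 34 had a row among the 22942 rows of the RNA table. Foxm1, a transcription factor of G2/M genes, and Ect2, a RhoA activator of cytokinesis, had no matched row, so their RNA was not analysed here. Ect2 enters the promoter counts, for which it has an entry. All 34 had a mean of at least 1 FPKM (fragments per length of transcript and per number of mapped fragments) over both groups, as did 11538 rows in all, so none was lost to that filter.

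The cells were mouse bone marrow mononuclear cells of strain B6.SJL (CD45.1), and every group carried retroviral constructs. Control cells had received MSCVneo and MSCVpuro, the empty vectors, and MLL-AF9 cells had received MSCVneo-MLL-AF9 and MSCVpuro. MLL-AF9 joins the histone methyltransferase MLL to AF9 in leukaemias, and was expressed here from a retroviral vector and not from the Mll locus. There were 3 polyA RNA libraries in each group, but the authors' deposited table gave 1 value per gene and group. The labels' protocols speak of duplicates for RNA, so it is not known which libraries entered a value, and they give neither the age of the animals nor the time in culture or in a host.

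Mitosis is run by CDK1 with cyclins A and B, which phosphorylate the proteins that condense chromosomes and assemble the spindle. The spindle checkpoint holds back the anaphase-promoting complex (APC/C), a ubiquitin ligase, until every kinetochore is attached. The APC/C then marks cyclin B and securin for destruction, and the central spindle directs cleavage. Most of the genes involved are transcribed mainly in G2 and M, so in marrow their RNA comes largely from dividing progenitors, whereas mature granulocytes have left the cycle.

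Promoters of such genes often hold a CHR element (cell cycle genes homology region), bound by MuvB complexes, and CCAAT boxes, bound by NF-Y. The promoters below belong to the 4 members with the highest and the 4 with the lowest log2 change from control to MLL-AF9 cells, the latter 4 being lower with MLL-AF9 in the values as deposited, and show how far members at both ends share these elements. Each runs 5′ to 3′ from 250 bases before the transcript start through the first 50 bases of the transcript. Capitals mark the CHR letters TTTGAA and the box CCAAT, each on either strand. They were taken from the RefSeq promoter table of build GRCm38.p6, with Bub1 at chr2:127831810-127832109 on the minus strand, Cenpe at chr3:135212313-135212612 on the plus strand, Cenpf at chr1:189688037-189688336 on the minus strand and Mki67 at chr7:135716330-135716629 on the minus strand. The others were Cdc20 at chr4:118437294-118437593 on the minus strand, Ube2c at chr2:164769679-164769978 on the plus strand, Birc5 at chr11:117848987-117849286 on the plus strand and Plk1 at chr7:122159185-122159484 on the plus strand.
Bub1: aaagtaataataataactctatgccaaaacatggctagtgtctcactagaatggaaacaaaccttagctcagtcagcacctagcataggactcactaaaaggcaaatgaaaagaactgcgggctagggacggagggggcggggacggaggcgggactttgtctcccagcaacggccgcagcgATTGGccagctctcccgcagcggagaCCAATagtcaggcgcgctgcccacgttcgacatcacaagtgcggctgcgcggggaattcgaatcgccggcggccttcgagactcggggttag
Cenpe: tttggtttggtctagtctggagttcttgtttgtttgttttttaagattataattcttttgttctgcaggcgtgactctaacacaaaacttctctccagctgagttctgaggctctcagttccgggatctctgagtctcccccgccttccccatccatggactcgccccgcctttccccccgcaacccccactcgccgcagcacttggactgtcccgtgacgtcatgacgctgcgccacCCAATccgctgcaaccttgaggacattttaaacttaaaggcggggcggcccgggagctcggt
Cenpf: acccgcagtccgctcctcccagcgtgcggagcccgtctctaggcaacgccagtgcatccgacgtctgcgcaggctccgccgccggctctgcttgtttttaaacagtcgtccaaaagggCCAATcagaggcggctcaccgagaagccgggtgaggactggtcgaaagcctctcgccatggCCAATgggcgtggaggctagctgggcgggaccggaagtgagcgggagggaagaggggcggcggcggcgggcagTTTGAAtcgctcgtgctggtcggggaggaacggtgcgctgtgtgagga
Mki67: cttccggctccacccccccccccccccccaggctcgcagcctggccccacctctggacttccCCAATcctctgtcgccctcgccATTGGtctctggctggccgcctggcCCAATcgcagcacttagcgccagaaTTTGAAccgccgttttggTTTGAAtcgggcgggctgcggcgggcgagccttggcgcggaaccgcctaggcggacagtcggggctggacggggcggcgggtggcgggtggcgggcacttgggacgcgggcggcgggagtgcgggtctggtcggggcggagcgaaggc
Cdc20: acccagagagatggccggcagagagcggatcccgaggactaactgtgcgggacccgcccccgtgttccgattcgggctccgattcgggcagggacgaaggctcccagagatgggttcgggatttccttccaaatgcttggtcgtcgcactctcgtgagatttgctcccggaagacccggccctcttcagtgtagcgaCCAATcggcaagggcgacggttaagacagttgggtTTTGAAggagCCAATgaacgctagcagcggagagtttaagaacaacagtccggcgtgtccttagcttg
Ube2c: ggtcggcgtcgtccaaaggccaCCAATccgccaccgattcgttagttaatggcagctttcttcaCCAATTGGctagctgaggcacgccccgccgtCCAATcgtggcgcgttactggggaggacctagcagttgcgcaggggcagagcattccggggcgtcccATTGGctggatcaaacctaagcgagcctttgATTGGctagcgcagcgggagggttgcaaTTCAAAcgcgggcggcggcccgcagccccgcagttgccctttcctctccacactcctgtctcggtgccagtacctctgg
Birc5: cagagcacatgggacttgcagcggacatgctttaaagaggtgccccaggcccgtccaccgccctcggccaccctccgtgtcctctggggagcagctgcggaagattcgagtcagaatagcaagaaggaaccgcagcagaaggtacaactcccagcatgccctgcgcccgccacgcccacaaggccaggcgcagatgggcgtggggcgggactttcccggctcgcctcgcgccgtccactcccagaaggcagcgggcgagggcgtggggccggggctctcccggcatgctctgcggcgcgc
Plk1: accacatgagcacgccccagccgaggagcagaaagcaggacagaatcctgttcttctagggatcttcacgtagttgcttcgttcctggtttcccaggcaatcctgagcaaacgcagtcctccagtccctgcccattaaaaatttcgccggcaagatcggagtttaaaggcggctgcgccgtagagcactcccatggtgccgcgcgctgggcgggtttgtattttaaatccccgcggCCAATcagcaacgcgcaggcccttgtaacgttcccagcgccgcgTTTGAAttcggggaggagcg

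Of the 36 members, 30 had an entry in the promoter table, with 32 promoters between them, and 29 of the 30, all but Ect2, also had a row in the RNA table. Ect2 and Prc1 have 2 overlapping promoters each. TTTGAA was present on either strand in 25 of these 32 promoters (78.1%), compared with 17.9% of all 32851 promoters of the same length. CCAAT was present on either strand in 27 (84.4%), compared with 37.4% of all promoters, and both motifs together in 23 (71.9%) compared with 6.95%. The palindromic CHR variant TTTAAA was found in 9 (28.1%) compared with 13.2%. An E2F motif was found in 6 (18.8%) compared with 9.57%, counted on either strand as TTNNCGC with only C or G allowed at the N positions. Counted per gene against the 7630 genes tested in the RNA table that had an entry, E2F motifs were in a smaller share of the mitotic genes, 16.7% compared with 19.7%. In the same count TTTGAA was in 76.7% compared with 14%, and CCAAT in 83.3% compared with 43.5%. A CCAAT box can share its last base with a CHR match that follows it, and an E2F form that begins TTGG can lie partly within a reversed box.

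The CHR letters clustered around the transcript start. Counting the first transcribed base as position 0, 23 of 31 TTTGAA matches in member promoters began from -50 up to 50, and 71.9% of the promoters had a match there, compared with 4.94% of all promoters. The overlapping promoters of Ect2 and of Prc1 count some sites again, and by position in the genome there were 28 different matches, of which 21 began in that stretch of at least 1 promoter. In the printed set the match of Ube2c began at -29, that of Cdc20 at -18, that of Cenpf at 2 and that of Plk1 at 30. Mki67 had its matches further upstream, at -116 and -98. Bub1, Cenpe and Birc5 had no TTTGAA in this window, though Cenpe held the variant TTTAAA at 14 and Birc5 at -220. Birc5 also had no CCAAT, and Bub1 had CCAAT matches at -68 and -42.

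**Figure D1:**
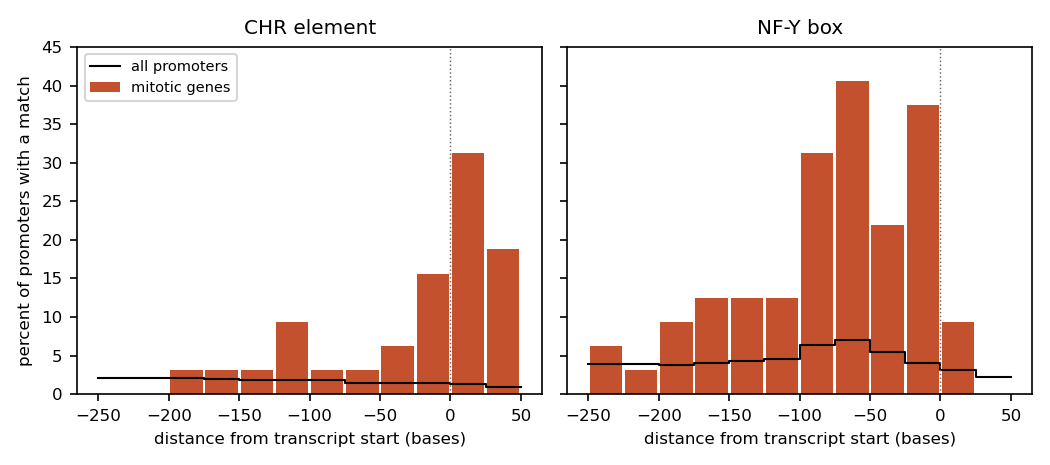
Share of promoters with a CHR match (left) or a CCAAT match (right) beginning in each bin of 25 bases, plotted against the distance from the transcript start in bases. Bars are the 32 promoters of the mitotic genes, with the overlapping promoters of Ect2 and of Prc1 counted separately, and the line is all 32851 promoters. CHR matches of the mitotic genes peak in the bin after the start, at 31.3%, and CCAAT matches lie mostly upstream of them.

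Many of the promoters held several CCAAT boxes. More than 1 was present in 19 of the 32 promoters (59.4%, compared with 11.7% of all promoters). A pair whose first bases lay 31 to 33 bases apart was present in 8 (25%), compared with 0.971% of all promoters. These 8 were the promoters of Aurka, Ccnb1, Ccnb2, Cdca3, Cdk1, Hmmr, Nek2 and Ube2c. These are counts of letters, and whether any factor bound the sites in these cells was not measured.

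As a group, the mitotic genes lay close to the shift of the whole table between MLL-AF9 and control cells. The members' median was 41.6 FPKM with MLL-AF9 and 38.3 FPKM in controls, and their median log2 change was 0.27, where a log2 change is the log2 of (FPKM + 1) in MLL-AF9 cells less that in control cells. The median over all 11538 rows was 0.29. Of the 34 members 16 lay above this median and 18 below it. Both groups are bulk cells, so a different share of dividing cells and a different amount of RNA per dividing cell cannot be told apart.

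None of the 34 members passed the authors' comparison at q under 0.05, in which 10.3% of all rows tested were called, 5.13% higher and 5.2% lower in MLL-AF9 cells. The test behind these q-values is not stated in the sources used here. At an unadjusted p under 0.05, Bub1 alone passed, compared with 19.8% of all rows. The members' p-values in the authors' deposited table had a median of 0.529, and those of all rows a median of 0.330. A failure to pass does not show that levels were equal, and the spread between libraries is unknown.

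The folds of the members were in a range where the authors' comparison called few genes. An FPKM ratio of at least 1.5 toward MLL-AF9 was seen for 4 members, compared with 33.5% of all rows, and of at least 1.5 toward control for 0, compared with 14.2%. No member reached 2-fold in either direction, whereas 24.8% of all rows did. Of the 6393 genes whose mean lay between those of the lowest and the highest member, 8.71% were called at q under 0.05. Among them, 0 of 2053 with a difference of 1.2-fold to 1.5-fold were called. Of those with 1.5-fold to 2-fold, 3.58% were, and of those with 2-fold to 3-fold, 18.1%. Of the members 13 differed by under 1.2-fold and 17 by 1.2-fold to 1.5-fold.

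**Figure D2:**
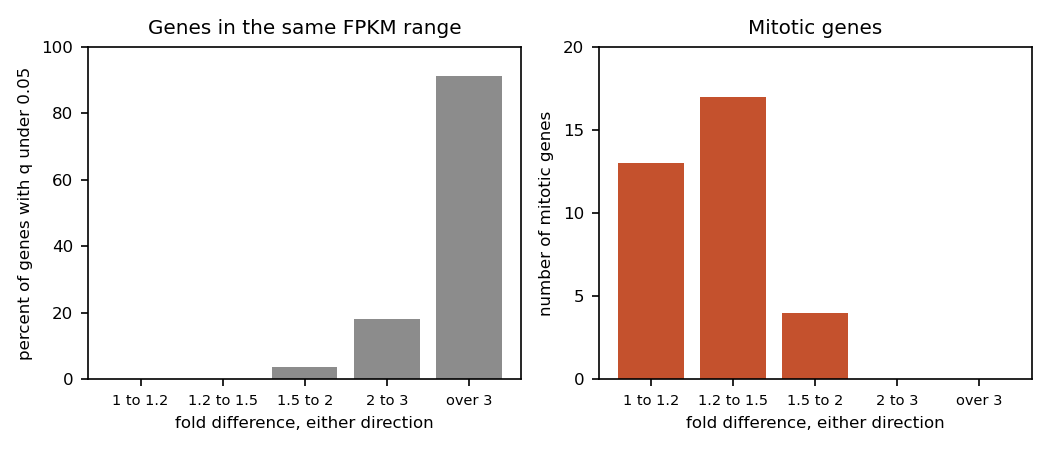
Left, percent of the genes in the members' FPKM range with q under 0.05 in the authors' deposited table, by the size of the fold difference in either direction. Genes listed at 0 in a group have no finite fold and are in no class. Right, the number of mitotic genes in each class of fold: 13, 17 and 4 in the lowest 3 classes and 0 above 2-fold, where most calls of other genes lie.

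The members also varied less among themselves than the whole set of genes of like level, which mixes genes of all functions. The interquartile range of their log2 changes was 0.37, from 0.08 to 0.45, whereas that of the 6393 genes in the same FPKM range was 0.72 and that of all rows 0.79. Of the genes in that FPKM range, 68.8% had an FPKM ratio within the members' own limits. This is a description, since members were not drawn at random and no test was made on it. The interquartile range was not computed for other lists of related genes, such as the S phase genes. Whether a narrow spread is particular to the mitotic genes was therefore not tested.

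The order of the members by level was nearly kept between groups, with a Spearman correlation of 0.98 over the 34 genes, which share their libraries. Levels are given in FPKM, which is per length of transcript. In control cells Ube2c was highest at 138 FPKM, followed by Birc5 at 120 and Top2a at 94.7 FPKM. In MLL-AF9 cells Top2a was highest at 140 FPKM, followed by Mki67 at 109 and Ube2c at 106 FPKM. Cenpf was lowest in both groups. Ranked among all rows tested in the same group, the median member stood at percentile 78.1 in control and 77.8 in MLL-AF9 cells. The percentile was higher in MLL-AF9 cells for 20 members and lower for 14, and it moved by under 5 points for 28.

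**Figure D3:**
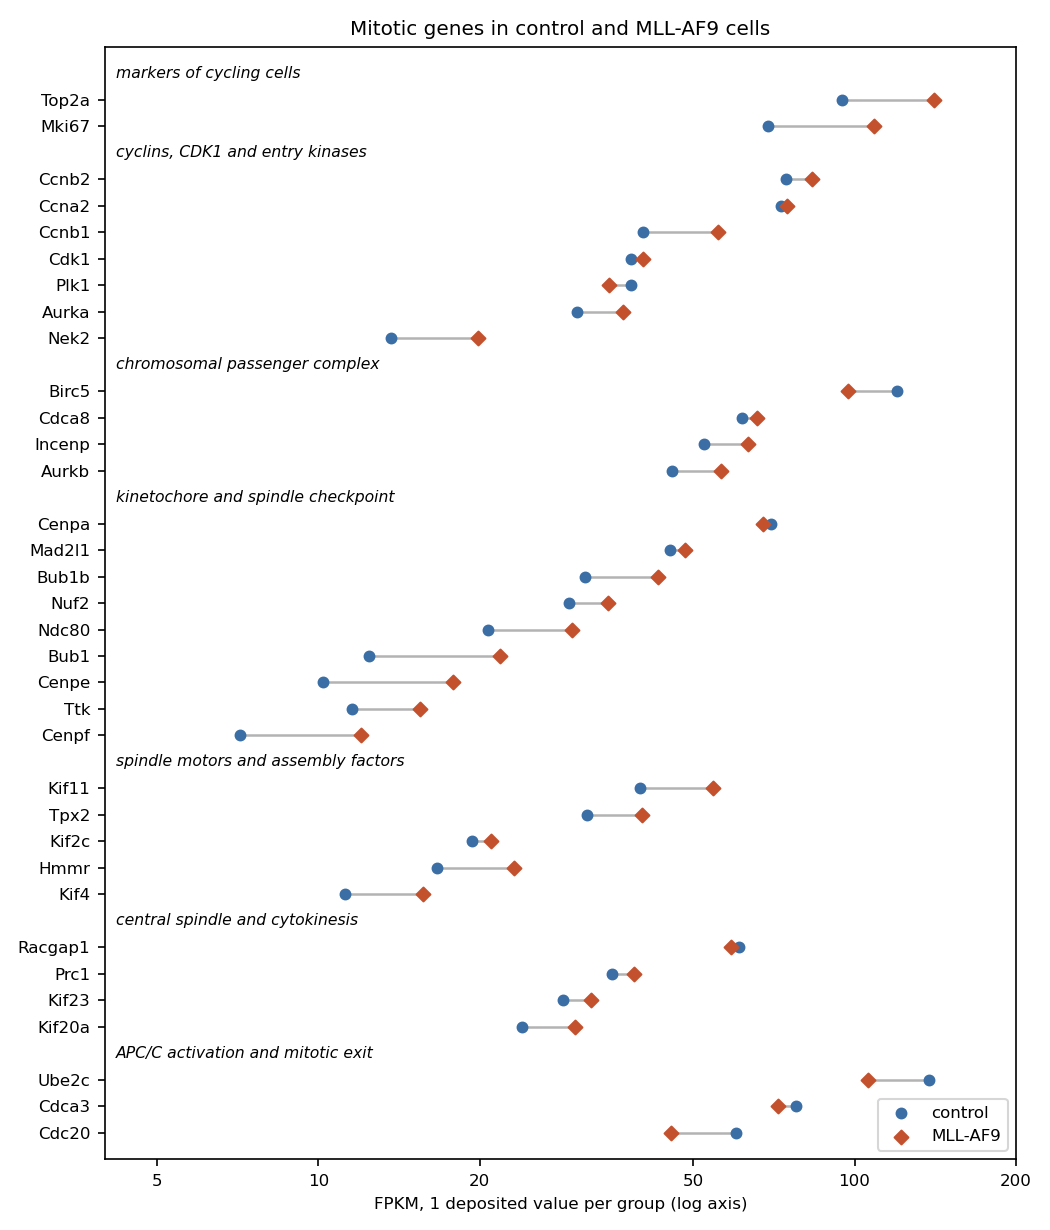
FPKM of the 34 mitotic genes on a log axis, with 1 deposited value per group, control as circles and MLL-AF9 as diamonds, grouped by role. Most pairs lie close together, with the widest gaps at Bub1, Cenpe, Cenpf and Mki67, where MLL-AF9 is higher, and at Cdc20, Ube2c and Birc5, where control is higher.

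Mki67 and Top2a, the usual markers of cycling cells, had higher values in MLL-AF9 cells under each of the scalings tried. Ki-67 coats mitotic chromosomes and keeps them apart, and Mki67 was at 109 FPKM with MLL-AF9 and 68.9 FPKM in controls, a ratio of 1.58 (p = 0.323, q = 0.637 in the authors' deposited table). Top2a encodes topoisomerase II alpha, which untangles sister DNA, and was at 140 against 94.7 FPKM, a ratio of 1.48 (p = 0.352, q = 0.661 in the authors' deposited table). Both log2 changes lay above the all-row median, and neither gene passed.

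The cyclins, CDK1 and the kinases of mitotic entry stood near or under the shift of the table, with a median log2 change of 0.16 over 7 genes, of which 2 lay above the all-row median. Cdk1, the central kinase, was at 40.4 FPKM with MLL-AF9 and 38.3 FPKM in controls. Its partner Ccna2, which also acts in S phase, was at 74.96 against 72.8 FPKM, and Ccnb2 at 83.4 against 74.5 FPKM. Ccnb1, the main mitotic cyclin, differed more, at 55.6 against 40.3 FPKM. The amount of Ccnb1 relative to Cdk1 was therefore 1.38 in MLL-AF9 and 1.05 in control cells, and that of Ccna2 relative to Cdk1 was 1.86 and 1.90.

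Among the entry kinases, Plk1, which matures centrosomes and recruits cytokinesis factors, was the one with the lower value in MLL-AF9 cells, at 34.9 against 38.3 FPKM (p = 0.794, q = 0.920 in the authors' deposited table). Aurka, the spindle pole kinase, was at 37.0 against 30.4 FPKM. Nek2, which splits the centrosomes, was at 19.8 against 13.7 FPKM, a ratio of 1.45 (p = 0.311, q = 0.627 in the authors' deposited table). None of the 3 passed.

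The 4 subunits of the chromosomal passenger complex, which corrects wrong attachments, differed in direction, with Birc5 apart from the rest in the values as deposited. After median centring Incenp and Cdca8 were lower too. Incenp, its scaffold, was at 63.4 against 52.3 FPKM and Aurkb, its kinase, at 56.4 against 45.7 FPKM. Cdca8, which encodes borealin, was at 65.7 against 61.7 FPKM. Birc5, which encodes survivin, was lower in MLL-AF9 cells, at 97.1 against 120 FPKM (p = 0.542, q = 0.794 in the authors' deposited table). The level of Birc5 was 2.63 times that of Aurkb in control and 1.72 times in MLL-AF9 cells, whereas Incenp stayed at 1.14 and 1.12 times that of Aurkb. Cdca8 relative to Aurkb differed in the same direction as Birc5 but less, at 1.35 in control and 1.17 in MLL-AF9 cells. These ratios have no error of their own, since each group has 1 value.

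Kinetochore and checkpoint genes held the 3 largest ratios of all members. Their median log2 change was 0.44, with 6 of 9 above the all-row median. Bub1, a checkpoint kinase that phosphorylates histone H2A at centromeres, was at 21.8 FPKM with MLL-AF9 and 12.4 FPKM in controls, a ratio of 1.76 (p = 0.00699, q = 0.0612 in the authors' deposited table). Cenpe, a motor that carries chromosomes to the equator, had a ratio of 1.75, at 17.8 against 10.2 FPKM (p = 0.115, q = 0.387 in the authors' deposited table). Cenpf, a large coiled-coil protein of the outer kinetochore, had a ratio of 1.69, at 12.0 against 7.13 FPKM (p = 0.140, q = 0.428 in the authors' deposited table). In percentiles among all rows, Bub1 stood 11.0, Cenpe 10.7 and Cenpf 8.16 points higher in MLL-AF9 cells.

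The remaining kinetochore genes differed less. Ndc80 and Nuf2, which together form the arm that grips microtubules, were at 29.8 against 20.7 FPKM (p = 0.321, q = 0.635 in the authors' deposited table) and at 34.7 against 29.4 FPKM. Ndc80 was thereby at 0.857 times the level of Nuf2 in MLL-AF9 and 0.705 times in control cells. Bub1b, which encodes the APC/C inhibitor BUBR1, was at 42.9 against 31.5 FPKM, and Ttk, the MPS1 kinase that starts the checkpoint, at 15.5 against 11.6 FPKM (p = 0.439, q = 0.727 in the authors' deposited table). Mad2l1, the other APC/C inhibitor, was at 48.3 against 45.2 FPKM. Cenpa, the histone variant that marks centromeres, was at 67.4 against 69.7 FPKM and stood apart from the larger differences of Cenpe and Cenpf.

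All 5 spindle motors and assembly factors had higher values in MLL-AF9 cells, except Kif2c after quantile normalization or median centring. Their median log2 change was 0.45, or 0.17 after quantile normalization. Kif11, which pushes the spindle poles apart, was at 54.5 against 39.7 FPKM. Kif4, a chromosome-bound motor, was at 15.6 against 11.2 FPKM (p = 0.355, q = 0.663 in the authors' deposited table). Hmmr, a spindle pole protein that also binds hyaluronan, was at 23.2 against 16.6 FPKM. Kif2c, which takes microtubules apart at centromeres, was close, at 21.0 against 19.3 FPKM.

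Tpx2, which activates Aurka on the spindle, had the lowest p-value after Bub1 of all members although its difference was modest, at 40.1 against 31.7 FPKM (p = 0.0817, q = 0.316 in the authors' deposited table). Its ratio of 1.27 was smaller than that of Cenpe or Mki67, whose p-values were higher. The p-values of the authors therefore did not follow the FPKM ratio alone. Aurka relative to Tpx2 was 0.923 in MLL-AF9 and 0.959 in control cells.

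Central spindle and cytokinesis genes showed small differences, with a median log2 change of 0.15 over 4 genes, which was -0.02 under quantile normalization. Kif23 and Racgap1 form centralspindlin, and were at 32.3 against 28.5 FPKM and at 58.9 against 60.9 FPKM. Prc1, which bundles the microtubules of the midzone, was at 38.8 against 35.2 FPKM. Kif20a, a motor that brings Plk1 to the midzone, was at 30.2 against 24.0 FPKM. Of the 4, Kif20a was above the all-row median.

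Cdc20, Ube2c and Cdca3, grouped here under APC/C activation and mitotic exit, all had lower values in MLL-AF9 cells, with a median log2 change of -0.38. The exception was Cdca3 after scaling to the sum of named rows. No other group was lower in all its members. Among members of other groups, the APC/C inhibitors Bub1b and Mad2l1 and the APC/C target Ccnb1 had higher values as deposited. The sign for Mad2l1 depended on the scaling. These 3 do not stand for all genes that act with the APC/C. In the list of other APC/C and separase genes, 11 had higher values as deposited and 5 lower, namely Anapc2, Anapc13, Fzr1, Ube2s and Fbxo5. Cdc20, the activator of the APC/C in mitosis, was at 45.5 against 60.2 FPKM, the lowest ratio of all members at 0.755 (p = 0.430, q = 0.720 in the authors' deposited table). Ube2c, the ubiquitin-conjugating enzyme that starts chains for the APC/C, was at 106 against 138 FPKM (p = 0.460, q = 0.742 in the authors' deposited table). Cdca3, an APC/C substrate, was at 72.0 against 77.7 FPKM. Relative to Bub1b, its inhibitor, Cdc20 was at 1.06 in MLL-AF9 and 1.91 in control cells. Relative to Mad2l1, the other inhibitor, Cdc20 differed less, at 0.940 in MLL-AF9 and 1.33 in control cells. These ratios have no error, since each group has a single value.

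Cdc20, Ube2c and Birc5 were lower, and Bub1, Cenpe and Cenpf higher, in MLL-AF9 cells with the values as deposited, after quantile normalization, after median centring and after scaling to the sum of named rows. Of the other 28 members, 13 had higher values with MLL-AF9 in all 4 settings: Mki67, Top2a, Ccnb1, Nek2, Aurkb, Bub1b, Ttk, Ndc80, Kif11, Kif4, Tpx2, Hmmr and Kif20a. The sign of the remaining 15 depended on the setting. Median centring and scaling to the sum multiply all values of a group by the same factor, so a change of sign under them says only that the difference was small beside that factor. With the values as deposited 27 of 34 had a positive log2 change, beside 68.7% of all rows, and this number was 20 after quantile normalization, 16 after median centring and 31 after scaling to the sum. The all-row median moved likewise, from 0.29 to 0.09, 0.03 and 0.45.

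The difference between groups went with the level of the gene. All 7 members with a mean under 20 FPKM had higher values in MLL-AF9 cells (median log2 change 0.50), as did 13 of the 14 with 20 to 50 FPKM (median 0.26) and 7 of the 13 over 50 FPKM (median 0.04). Across the 34 members the Spearman correlation of log2 change with mean FPKM was -0.53. It was -0.12 across the 6393 genes of that FPKM range, where the median log2 change was 0.35 under 20 FPKM and 0.19 over 50 FPKM. Both measures are built from the same pair of values, and the length of the transcripts was not analysed here. Mki67 and Top2a had the largest log2 changes among the members over 50 FPKM.

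**Figure D4:**
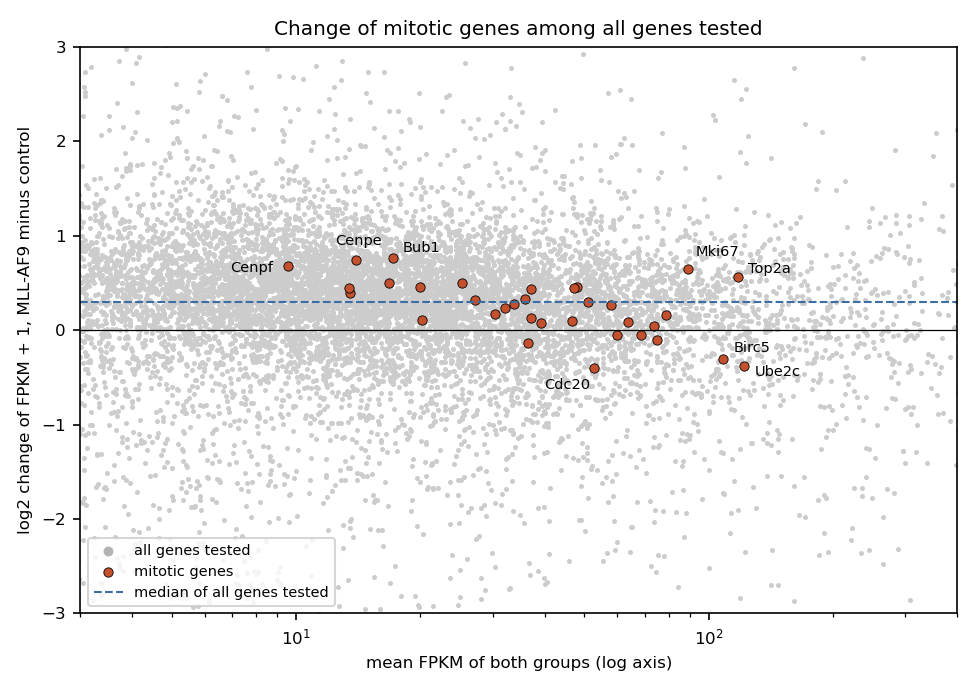
Log2 change of FPKM + 1, MLL-AF9 minus control, against the mean FPKM of both groups on a log axis, for the mitotic genes and all rows tested. The mitotic genes lie in a narrow band about the all-row median of 0.29, with Bub1, Cenpe and Cenpf at the top left and Cdc20, Birc5 and Ube2c at the bottom. The axes are limited to 3 to 400 FPKM and -3 to 3, so rows outside these limits are not drawn.

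The wider mitotic pathway, in 6 lists of 130 further genes, held few genes that passed. Of 122 with a row, 2 rose and 1 fell at q under 0.05, beside 5.13% and 5.2% of all rows, and at an unadjusted p under 0.05 there were 5 toward MLL-AF9 and 2 toward control, beside 11.5% and 8.32% of all rows. Their median log2 change was 0.39. Casc5, the KNL1 scaffold to which BUB1 docks, rose to 14.9 FPKM from 5.29 (authors' deposited table, q = 0.0443). Pds5a, a regulator of cohesin release, rose to 64.1 FPKM from 20.9 (authors' deposited table, q = 0.0226). Cdc25b, a phosphatase that activates CDK1, fell to 11.1 FPKM from 26.0 (authors' deposited table, q = 0.00789).

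By list, condensin and cohesin genes had the highest median of the 6, and the counts called stand beside the 10.3% called at q under 0.05 among all rows. All 18 had higher values in MLL-AF9 cells, or 14 after median centring, and their median log2 change was 0.66, with 1 called. The 32 other kinetochore and centromere genes had a median of 0.34 with 1 called, and the 26 other spindle, centriole and abscission genes a median of 0.47 with 0 called. Of the latter, Cit, the citron kinase of cytokinesis, had the smallest p-value, at 6.24 against 2.46 FPKM (p = 0.0211, q = 0.133 in the authors' deposited table). The 16 other APC/C and separase genes had a median of 0.20, or -0.04 after quantile normalization, with 0 called. Their smallest p-value was that of the APC/C subunit Anapc5, at 144 against 93.5 FPKM (p = 0.0332, q = 0.178 in the authors' deposited table).

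The 11 other G2/M kinases, phosphatases and CDK subunits had a median of 0.42, and Cdc25b was the 1 called. Among 19 MuvB, E2F and NF-Y regulators the median was 0.23, or -0.05 after median centring, and 0 were called. E2f2 had the smallest p-value there, at 26.4 against 60.8 FPKM (p = 0.0225, q = 0.138 in the authors' deposited table).

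S phase genes, the nearest neighbours of the mitotic genes in the cycle, had a median log2 change of 0.54 over 27 genes, with 0 called at q under 0.05, beside 10.3% of all rows, and 1 at an unadjusted p under 0.05, beside 19.8%. That gene was Pola1, the catalytic subunit of DNA polymerase alpha, at 17.4 against 8.18 FPKM (p = 0.0373, q = 0.191 in the authors' deposited table). Of these genes 22 of 27 lay above the all-row median, compared with 16 of 34 mitotic genes. With 1 value per group, whether the lists differ was not tested. The promoters of S phase genes also differed in letters: 14.3% of 21 genes with an entry held TTTGAA and 61.9% an E2F motif, compared with 76.7% and 16.7% of the 30 mitotic genes.

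Markers of other marrow cells differed far more than the mitotic genes between the same samples. Late neutrophil markers were lower in MLL-AF9 cells for 9 of 9, with a summed level of 21876 against 194932 FPKM. S100a9 was left out of this sum, since it is listed at 0 in control cells with a p-value of 1. The highest were S100a8, at 16211 against 130850 FPKM, and Ngp, at 3162 against 24122 FPKM. RNA of these markers was thus abundant in cells labelled as mononuclear, and which cells it came from was not determined. B lineage markers were lower for 9 of 9, with a sum of 37.2 against 637 FPKM, of which Cd79b was at 28.5 against 210.0 FPKM and Cd79a at 2.97 against 210 FPKM.

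Erythroid markers were lower for 10 of 10, with a sum of 18.7 against 243 FPKM, led by Car2 at 6.31 against 96.3 FPKM and Car1 at 2.14 against 90.1 FPKM. T and NK markers were lower for 6 of 6, with a sum of 4.13 against 62.4 FPKM, of which Lck was at 1.92 against 16.2 FPKM and Cd3d at 0.660 against 16.7 FPKM. Macrophage markers were lower for 4 of 6, with a sum of 122 against 156 FPKM, and Csf1r and Emr1 were at 82.4 and 35.3 FPKM against 81.3 and 20.7 FPKM. Apart from S100a9, none of these markers was listed at 0 in either group. Erythroblasts and early B cells divide and mature neutrophils do not. The stage of the cells behind the late neutrophil markers was not determined, so their share of non-dividing cells is unknown. The part of all these cells in the levels above was not tested.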

How the data were processed

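Expression was read from 1 deposited table of polyA RNA with 1 value per gene for each of the 2 groups. These values are taken as FPKM made by the authors, because the file header names no unit and the processing notes name Cufflinks. Builds and tools per the submitters' processing notes are mm9, with CASAVA 1.8.2, TopHat 1.4.1, Cufflinks 1.3.0, Bowtie 0.17.2 and MACS 1.4. For their settings, and for the test behind the authors' p-value and q-value, the sources used here give nothing. Depth and spread between libraries are unknown, so no test was computed from the values. The labels do not say whether libraries came from separate animals. They name a TruSeq RNA v2 kit, which does not keep strand.

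The filter was a mean of at least 1 FPKM, and S100a9 was left out. Log2 changes used a pseudocount of 1, which understates the change of low genes. Calls were q under 0.05. Genes were matched by symbol or a RefSeq synonym. Members and lists were chosen with earlier results of these data known. Full p and q are given for the 6 members of lowest p, the 4 highest and 4 lowest log2 changes, and the 4 highest and 4 lowest means. From each further list up to 3 called genes are named, or else the gene of lowest p, and from each marker list the 2 highest. Other features singled out were chosen after their values were seen. Promoters were searched for exact letters on both strands. Scripts ran on Python 3.11.15 with numpy 2.4.6, pandas 2.3.3 and, for plots, matplotlib 3.10.9, and were tested on simulated data. Alternatives were other thresholds, filters, pseudocounts and scalings. The 5hmC lists were not used here, since they carry no gene names and no mm9 annotation was used.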

Additional observations from a re-analysis of the deposited data

How the results depend on the processing

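Of 60 alternative values, 32 stayed close to the reported one (within 1.5 times for a count, under 0.1 for a median log2 change) and 28 did not. Some of the 32 could not have moved. The lowest member mean was 9.57 FPKM, so the other filters on low values left every member result as it was. A 2-fold limit could not raise a count that was already 0 at 1.5-fold. An alternative left out the cycling markers and the group of APC/C activation and mitotic exit (median 0.28). This was chosen after seeing the data, as was another, limited to the members' FPKM range. That range holds every member by definition, so its count of 0 members called was carried over and not computed anew. Members called numbered 0 at q under 0.05, 1 at q under 0.1 and 1 at p under 0.05, Bub1 in both cases. Of all rows tested, 10.3% passed q under 0.05 and 19.8% passed p under 0.05. Their share at q under 0.1 was not computed. Members at least 1.5-fold higher, 4 as deposited, numbered 0 after quantile normalization, 0 after median centring, 13 after scaling to the sum and 0 at 2-fold. Members at least 1.5-fold lower numbered 0 as deposited and 3 after median centring. As deposited, 33.5% of all rows were at least 1.5-fold higher and 14.2% at least 1.5-fold lower. At 2-fold in either direction the share was 24.8%. The shares of all rows after each scaling were not computed, so the members' counts after scaling cannot be set beside them. The members' median of 0.27 became 0.10 after quantile normalization, -0.01 (-0.0075) after median centring and 0.44 after scaling to the sum, and less the all-row median it was -0.02, 0.02, -0.04 and -0.01 in turn from the values as deposited.

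After quantile normalization the medians were 0.059 for cyclins and entry kinases, 0.042 for the passenger complex, 0.27 for kinetochore, 0.17 for spindle motor and -0.020 for central spindle genes. For the further lists, after quantile normalization and median centring, they were 0.085 and 0.073 for kinetochore and centromere genes, -0.036 and -0.064 for APC/C and separase genes, 0.46 and 0.39 for condensin and cohesin genes, and 0.20 and 0.19 for spindle, centriole and abscission genes. MuvB, E2F and NF-Y regulators had 0.031 and -0.047, S phase genes 0.38 and 0.25, and other G2/M kinases 0.13 after median centring. These shifts come with the scaling of all rows, whose median moved too. No paired analysis was possible because the table holds 1 value per group, and for the same reason leaving out a replicate was not run.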

Other observations

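Of the 29 members with both a promoter entry and a row in the RNA table, the 22 with TTTGAA had a median log2 change of 0.17 (from -0.40 to 0.68) and the 7 without it a median of 0.46 (from -0.30 to 0.77). The 8 with a CCAAT pair had a median of 0.22 and the 21 without one a median of 0.23. The ranges overlap in both cases, and no test was made. In the further mitotic lists, TTTGAA was present in 61.5% of 26 spindle, centriole and abscission genes, 53.8% of 13 condensin and cohesin genes, 41.7% of 24 kinetochore and centromere genes, 41.2% of 17 MuvB, E2F and NF-Y regulators, 25% of 8 other G2/M kinases, phosphatases and CDK subunits and 18.8% of 16 APC/C and separase genes with an entry, compared with 14% of 7630 genes tested in the RNA table. An E2F motif was present in 76.9% of the 13 condensin and cohesin genes, compared with 19.7% of those 7630 genes. In the other further mitotic lists this share ran from 6.25% to 52.9%.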
